A study of Mus musculus with 16 samples.

Results

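NF-kB-inducing kinase (NIK), encoded by Map3k14, and 6 TRAF and cIAP genes were followed across the 6 groups of a mouse T cell series. The members were chosen by gene symbol: Map3k14, the adaptors Traf1, Traf2, Traf3 and Traf5, and the ubiquitin ligases Birc2 (cIAP1) and Birc3 (cIAP2). All 7 genes were measured, by 9 of the 55681 probes on the array, and all 7 stood among the 14678 genes tested. Map3k14 and Traf2 had 2 probes each. All 9 probes were well above background on all 16 arrays.

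NIK drives the noncanonical NF-kB pathway. In resting cells TRAF3 binds newly made NIK, TRAF2 bridges that pair to cIAP1 and cIAP2, and the cIAPs mark NIK for destruction by the proteasome. When a receptor such as the lymphotoxin beta receptor, CD40 or OX40 is engaged, TRAF3 is degraded instead, NIK accumulates and activates IKK1 (Chuk), and the precursor made from Nfkb2 is cut to the subunit that joins RelB. In T cells OX40 is a known source of this signal. The control acts on protein, and the arrays measured transcripts.

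The series compared splenic CD4+ T cells of male mice aged 8 to 10 weeks, 1 array per sample. NEMO knockout mice (strain background NEMOfl/f in the sample labels) and IKK2 knockout mice (IKK2fl/fl) carried a floxed Ikbkg or Ikbkb allele with Cre recombinase under the CD4 promoter, and the controls (CD4cre) carried that Cre alone, so every group expressed Cre and no group was free of it. CD4-driven Cre acts in all cells that have made CD4 during thymic development, so cells that later become CD8+ carry the deletion too. Each genotype was sampled on day 10 of nephrotoxic serum nephritis, after injection of 2.5 mg of sheep serum per g of body weight, and without nephritis. There were 2 arrays per condition for NEMO knockout and 3 per condition for IKK2 knockout and for Cre controls. IKK2 is a kinase of the canonical IKK complex and NEMO its regulatory subunit. By its title the series asks whether loss of NEMO differs from loss of IKK2 by way of noncanonical signalling.

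Some facts of the arrays bear on every comparison. The 75th percentile of spot intensity lay between 237 and 419 and 48.9% to 59.8% of spots were well above background. All 4 NEMO arrays were on slide 3, which held no other array, so NEMO knockout and slide cannot be told apart. All 3 nephritic Cre arrays were on slide 1 and all 3 Cre arrays without nephritis on slide 2, so nephritis in Cre controls can be separated from slide only through the IKK2 arrays. Slide 1 held the nephritic IKK2 and Cre arrays and IKK2 replicates 1 and 2 without nephritis, and slide 2 held IKK2 replicate 3 and the 3 Cre arrays without nephritis. The leading principal component (49.1% of variance) ran from 71.8 to 90.2 in NEMO arrays against -51.9 to 7.88 in the other arrays; nephritic Cre replicate 2 stood at -67.4 on the third. The 8 T cell markers were above background on every array. Nothing in the labels says that replicates are different mice, so the p-values reflect the spread of these samples alone, part of which may be technical.

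The targeted genes came first. Ikbkb stood at 3.02, 2.95 and 2.91 in nephritic IKK2 knockout, against 3.27, 3.45 and 3.18 in nephritic Cre controls (log2 level relative to the array's 75th percentile, the scale of all levels here), and at 3.31, 2.88 and 2.99 against 3.29, 3.31 and 3.30 without nephritis; neither difference passed (adjusted p = 0.133 and 0.162). Ikbkg stood at -0.71 and -0.59 in nephritic NEMO knockout, against -0.26, -0.40 and -0.26 in nephritic Cre controls, and was lower (adjusted p = 0.0195). That call was lost in 6 of 25 alternatives, over which the difference ran from -0.408 to -0.165. Without nephritis Ikbkg stood at -0.94 and -0.74 against -0.85, -0.74 and -0.52 and did not pass (adjusted p = 0.337). Each gene passed in the knockout of the other. Ikbkb stood at 2.78 and 2.86 in nephritic NEMO knockout and at 2.84 and 3.06 without nephritis, lower than in Cre controls by -0.48 (adjusted p = 0.00653) and by -0.35 (adjusted p = 0.0371), calls lost in 1 and 7 of 25 alternatives. Ikbkb did not pass between NEMO and IKK2 knockout (-0.14, adjusted p = 0.363, and -0.11, adjusted p = 0.529). Ikbkg was higher in IKK2 knockout than in Cre controls without nephritis (0.68, adjusted p = 0.00153), a call kept in 26 of 27 alternatives. Between the knockouts Ikbkg was lower in NEMO knockout without nephritis, by -0.913 to -0.663 over 25 alternatives, all of which kept the call. Under nephritis it did not pass between them. The sources used here do not place the probes relative to the floxed exons, so these levels are no check of the deletion.

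The promoters are shown because Traf3 and Map3k14 differed between the knockouts in opposite directions. Another reason is that the windows of Traf3, Traf2 and Traf5 match a pattern made after the NF-kB site. Each window is 300 bases long, from 250 before the annotated start to 50 after it, read 5′ to 3′ on the gene's strand from RefSeq (GRCm38.p6), for which all 7 members matched. A strict and a looser spelling made after the NF-kB site were searched on both strands. Both leave the base after GGG open, which is G in the Traf3 match and T in those of Traf2 and Traf5. Binding was not tested. The strict one is GGG, then 2 bases of any kind, then TTTCC, and the looser one is GGG, then 3 bases of any kind, then TTCC, so every strict match is also a looser one. The strict spelling occurred in 1.63% of all windows (535 of 32851) and the looser in 5.56% (1825 of 32851). Capitals mark a match.
Traf3, chr12:111166120-111166419, plus strand.
Traf3: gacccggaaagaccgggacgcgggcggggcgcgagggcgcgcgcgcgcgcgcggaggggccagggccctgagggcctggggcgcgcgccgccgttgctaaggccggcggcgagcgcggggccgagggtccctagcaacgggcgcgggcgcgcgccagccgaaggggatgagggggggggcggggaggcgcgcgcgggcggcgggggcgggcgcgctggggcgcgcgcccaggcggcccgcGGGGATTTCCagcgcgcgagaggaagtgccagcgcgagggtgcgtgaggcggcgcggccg
Traf2, chr2:25546891-25547190, minus strand.
Traf2: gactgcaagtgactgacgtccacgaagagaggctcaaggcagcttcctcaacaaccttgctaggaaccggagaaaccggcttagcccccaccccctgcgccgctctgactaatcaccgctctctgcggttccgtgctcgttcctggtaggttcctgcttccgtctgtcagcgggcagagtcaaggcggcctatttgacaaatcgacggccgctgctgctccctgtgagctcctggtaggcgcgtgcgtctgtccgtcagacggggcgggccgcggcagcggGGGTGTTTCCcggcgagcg
Traf5, chr1:192092550-192092849, minus strand.
Traf5: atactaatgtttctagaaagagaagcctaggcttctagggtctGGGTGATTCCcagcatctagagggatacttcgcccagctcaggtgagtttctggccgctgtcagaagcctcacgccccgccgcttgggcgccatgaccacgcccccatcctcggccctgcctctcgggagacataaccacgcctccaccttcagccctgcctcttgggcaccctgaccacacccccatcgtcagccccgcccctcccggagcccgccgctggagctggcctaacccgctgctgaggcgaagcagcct
Map3k14, chr11:103267352-103267651, minus strand.
Map3k14: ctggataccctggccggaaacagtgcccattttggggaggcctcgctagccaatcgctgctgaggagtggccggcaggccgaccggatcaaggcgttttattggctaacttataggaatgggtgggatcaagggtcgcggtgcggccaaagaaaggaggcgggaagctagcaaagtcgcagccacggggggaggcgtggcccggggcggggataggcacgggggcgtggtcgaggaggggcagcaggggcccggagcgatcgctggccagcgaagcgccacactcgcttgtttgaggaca
The Traf3 window holds the strict spelling in the 10 bases that end just before the start used for that window. The RefSeq span of the Traf3 gene begins earlier, at base 111166321, so this match lies inside the gene. The window has 84% G and C, against a median of 52.7% over all windows. The Traf2 window holds it from base 32 to base 41 after the start. The Traf5 window holds only the looser one, beginning 207 bases before the start. The windows of Map3k14, Traf1, Birc2 and Birc3 hold neither, which says only that these letters are not in those windows.

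Members passed the test in each of the 6 comparisons of genotypes, and 0 of 7 passed for nephritis in any genotype. Differences are log2 values with the standard error (SE) of limma's model of the 6 group means, p-values were adjusted by Benjamini-Hochberg over all 14678 genes, and a call is an adjusted p under 0.05. In nephritic IKK2 knockout against Cre controls 2 of 7 members were called, both lower, where 2.60% of all genes were called and 1.60% were lower. There, 4 of 7 did not overlap, where 24.9% of all genes did not. Without nephritis 1 of 7 was called, lower, where 14.6% of all genes were called and 4.52% were lower, and 4 of 7 did not overlap (30.0% of all genes). In NEMO knockout against Cre controls 3 of 7 were called under nephritis, all lower, where 48.4% of all genes were called and 29.6% were lower. Without nephritis 2 of 7 were called, 1 higher and 1 lower, where 43.0% of all genes were called, 21.0% higher and 22.0% lower. The total counts called are near or below those shares of all genes, while the 3 of 7 lower under nephritis lie above the 29.6%. Groups did not overlap for 5 and 3 of 7, against 70.2% and 67.0% of all genes. Between NEMO and IKK2 knockout 5 of 7 were called under nephritis, 3 higher and 2 lower, where 46.1% of all genes were called, 19.0% higher and 27.2% lower. Without nephritis 3 of 7 were called, 1 higher and 2 lower, where 35.3% of all genes were called, 15.4% higher and 19.9% lower. Groups did not overlap there for 7 and 5 of 7, against 72.8% and 58.9% of all genes.

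**Figure D1:**
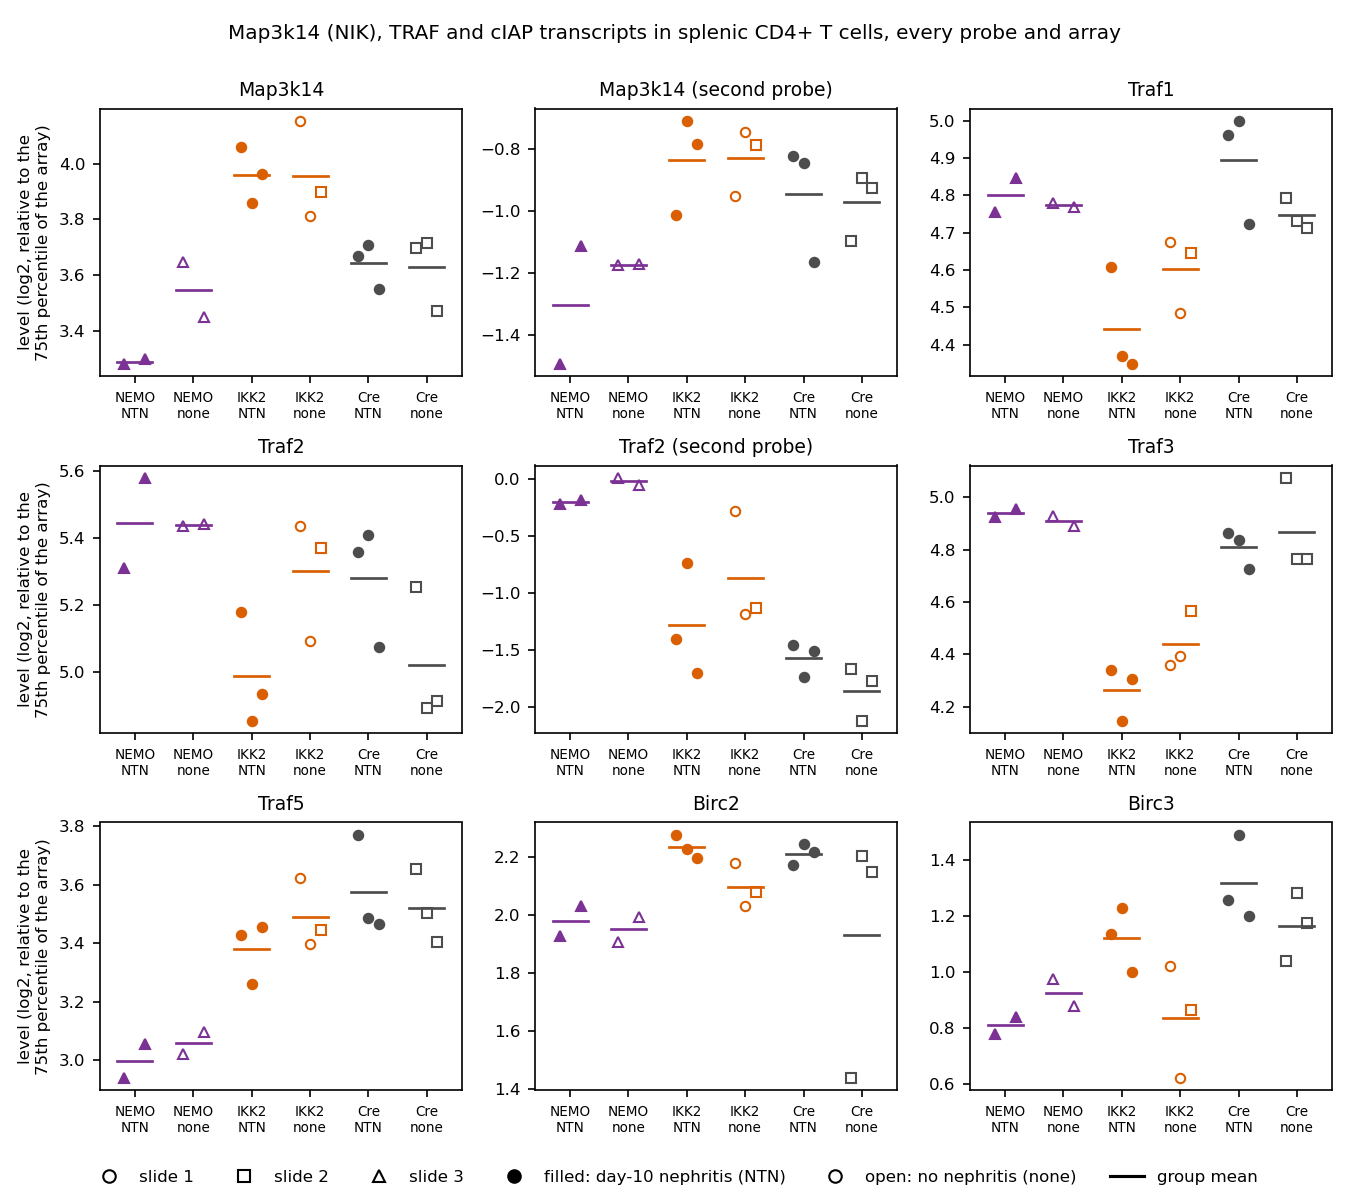
Level of each probe (log2, relative to the 75th percentile of the array) on all 16 arrays, by genotype and condition; points are arrays, their shape the slide, and bars are group means. Map3k14 is highest in IKK2 knockout and Traf3 lowest there, and Traf5 is lowest in NEMO knockout.

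Map3k14 encodes NIK, the kinase at the head of the pathway. Its main probe read 3.28 and 3.30 in nephritic NEMO knockout, 4.06, 3.86 and 3.96 in nephritic IKK2 knockout, and 3.67, 3.71 and 3.55 in nephritic Cre controls. Without nephritis it read 3.65 and 3.45 in NEMO knockout, 4.15, 3.81 and 3.90 in IKK2 knockout, and 3.70, 3.72 and 3.47 in Cre controls. Every IKK2 array lay above every Cre array and every NEMO array, whereas NEMO and Cre arrays overlapped without nephritis. Under nephritis Map3k14 was lower in NEMO knockout than in IKK2 knockout by a log2 difference of -0.67 (SE 0.12, adjusted p = 0.000670), a 1.59-fold difference, and without nephritis by -0.41 (SE 0.12, adjusted p = 0.0176). It was also lower in nephritic NEMO knockout than in Cre controls (-0.35, SE 0.12, adjusted p = 0.0262), but not without nephritis (-0.08, adjusted p = 0.609).

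The higher Map3k14 level of IKK2 knockout did not pass against Cre controls. The difference was 0.32 (SE 0.10, 95% interval 0.09 to 0.55, adjusted p = 0.145) under nephritis and 0.33 (SE 0.10, 95% interval 0.10 to 0.55, adjusted p = 0.0571) without it. Under quantile normalization both passed, at 0.374 (adjusted p = 0.0359) and 0.305 (adjusted p = 0.0272). The second Map3k14 probe, much dimmer, ranged from -1.49 to -1.11 in NEMO knockout, from -1.01 to -0.71 in IKK2 knockout and from -1.16 to -0.82 in Cre controls. It ordered the genotypes the same way by group mean, and passed once, between nephritic NEMO and IKK2 knockout, at -0.47 (SE 0.15, adjusted p = 0.0229 in a fit of all 34938 probes, where 42.5% passed).

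The call of Map3k14 in nephritic NEMO knockout against Cre controls missed the threshold without NEMO replicate 1 (-0.34, adjusted p = 0.109) or 2 (-0.36, adjusted p = 0.0972), at nearly the same difference. Leaving out a NEMO array leaves 1 in that group, here and below, and the lone array is assumed to vary like the other groups. The call was also lost without Cre replicate 1 (-0.34, adjusted p = 0.0628) or 2 (-0.32, adjusted p = 0.0719). In all it was lost in 6 of 25 alternatives, over which the difference ran from -0.400 to -0.241. That between the knockouts without nephritis was lost without NEMO replicate 2 (-0.31, adjusted p = 0.159), without IKK2 replicate 1 (-0.31, adjusted p = 0.0518) and with only the arrays compared (-0.41, adjusted p = 0.122).

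TRAF3 is the adaptor that binds NIK directly. Traf3 read 4.92 and 4.96 in nephritic NEMO knockout, 4.34, 4.15 and 4.31 in nephritic IKK2 knockout, and 4.86, 4.84 and 4.73 in nephritic Cre controls. Without nephritis it read 4.93 and 4.89 in NEMO knockout, 4.36, 4.40 and 4.56 in IKK2 knockout, and 5.07, 4.76 and 4.76 in Cre controls. All 6 IKK2 arrays lay below all 10 others. Traf3 was 1.46-fold lower in IKK2 knockout than in Cre controls under nephritis (-0.54, SE 0.10, adjusted p = 0.0130) and 1.35-fold lower without it (-0.43, SE 0.10, adjusted p = 0.0136).

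In NEMO knockout Traf3 was higher than in IKK2 knockout by 0.68 under nephritis (SE 0.11, adjusted p = 0.000353) and by 0.47 without it (SE 0.11, adjusted p = 0.00513). Against Cre controls it did not pass, at 0.13 (95% interval -0.10 to 0.37, adjusted p = 0.335) and 0.04 (95% interval -0.19 to 0.28, adjusted p = 0.775). Under nephritis the first of these was 0.36 in the authors' deposited matrix (adjusted p = 0.0184) and 0.36 after another background correction (adjusted p = 0.0169).

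The Traf3 difference between IKK2 knockout and Cre controls without nephritis was -0.30 with slide as a block (adjusted p = 0.218). On slide 2 alone, which held 1 IKK2 array and thus no spread for that group, the difference was also -0.30. Under nephritis all 6 arrays shared slide 1, on which alone it was -0.54 (adjusted p = 0.0584), and without IKK2 replicate 2 it was -0.485 (adjusted p = 0.0678).

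TRAF2 is the bridge to the cIAPs, and its 2 probes differed in the size of their differences and once in sign against Cre controls. The main probe read 5.31 and 5.58 in nephritic NEMO knockout, 5.18, 4.85 and 4.93 in nephritic IKK2 knockout, and 5.36, 5.41 and 5.07 in nephritic Cre controls. Without nephritis it read 5.44 and 5.44 in NEMO knockout, 5.44, 5.09 and 5.37 in IKK2 knockout, and 5.25, 4.89 and 4.91 in Cre controls. Under nephritis the NEMO arrays lay above the IKK2 arrays and overlapped the Cre arrays, and without nephritis they lay above the Cre arrays and overlapped the IKK2 arrays. IKK2 and Cre arrays overlapped in both conditions. The main probe was higher in NEMO knockout than in Cre controls without nephritis (0.42, SE 0.16, adjusted p = 0.0489) and than in IKK2 knockout under nephritis (0.46, SE 0.16, adjusted p = 0.0323). The first of these calls was lost in 16 of 25 alternatives, the second in 5 of 25, and none changed sign. Under nephritis the main probe did not pass against Cre controls, at 0.16 in NEMO knockout (adjusted p = 0.408) and -0.29 in IKK2 knockout (adjusted p = 0.298). In that IKK2 comparison the second probe had the opposite sign, at 0.29 (SE 0.26, adjusted p = 0.613), and did not pass either.

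The second Traf2 probe read -0.22 and -0.18 in nephritic NEMO knockout, -1.40, -0.74 and -1.71 in nephritic IKK2 knockout, and -1.46, -1.73 and -1.51 in nephritic Cre controls. Without nephritis it read 0.01 and -0.05 in NEMO knockout, -0.29, -1.18 and -1.13 in IKK2 knockout, and -1.67, -2.13 and -1.77 in Cre controls. All 4 NEMO arrays lay above all other arrays. In the fit of all probes it was higher in NEMO knockout than in Cre controls by 1.37 under nephritis (SE 0.29, adjusted p = 0.00306, 41.0% of probes called) and by 1.84 without it (SE 0.29, adjusted p = 0.000498, 38.8% of probes called). It was higher in NEMO than in IKK2 knockout by 1.08 (SE 0.29, adjusted p = 0.0115) and 0.85 (SE 0.29, adjusted p = 0.0475, 29.6% of probes called), and higher in IKK2 knockout than in Cre controls without nephritis by 0.99 (SE 0.26, adjusted p = 0.0340, 11.0% of probes called). The difference between IKK2 knockout and Cre controls was 0.72 with slide as a block (adjusted p = 0.350) and 0.70 without IKK2 replicate 1 (adjusted p = 0.0976), and it also missed the threshold without Cre replicate 1 (1.08, adjusted p = 0.0520), 2 (0.86, adjusted p = 0.112) or 3 (1.03, adjusted p = 0.0739). The one between the knockouts without nephritis was lost in 15 of 21 alternatives. The sources used here do not give the transcripts that each probe detects.

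TRAF1 joins TRAF2 in complexes with the cIAPs and is a known target of canonical NF-kB. Traf1 read 4.75 and 4.85 in nephritic NEMO knockout, 4.61, 4.37 and 4.35 in nephritic IKK2 knockout, and 4.96, 5.00 and 4.72 in nephritic Cre controls. Without nephritis it ranged from 4.77 to 4.78 in NEMO knockout, from 4.49 to 4.68 in IKK2 knockout and from 4.71 to 4.79 in Cre controls. The IKK2 arrays were the lowest of each condition. Traf1 was 1.37-fold lower in IKK2 knockout than in Cre controls under nephritis (-0.45, SE 0.09, adjusted p = 0.0281), and NEMO knockout exceeded IKK2 knockout there by 0.36 (SE 0.11, adjusted p = 0.0151). Without nephritis neither passed, at -0.14 (adjusted p = 0.330) and 0.17 (adjusted p = 0.228). The first call was lost in 10 of 27 alternatives, among them without Cre replicate 1 (-0.42, adjusted p = 0.0919) or 2 (-0.40, adjusted p = 0.102) and without IKK2 replicate 2 (-0.42, adjusted p = 0.116) or 3 (-0.41, adjusted p = 0.0968). The second was lost in 4 of 25, without IKK2 replicate 3 (0.31, adjusted p = 0.0529) or NEMO replicate 2 (0.31, adjusted p = 0.109), in the authors' deposited matrix (0.33, adjusted p = 0.0584) and with only the arrays compared (0.36, adjusted p = 0.0507).

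TRAF5 is a TRAF2 relative that binds receptors such as OX40 and CD27. Traf5 read 2.94 and 3.05 in nephritic NEMO knockout, 3.43, 3.26 and 3.46 in nephritic IKK2 knockout, and 3.77, 3.48 and 3.47 in nephritic Cre controls. Without nephritis it read 3.02 and 3.10 in NEMO knockout, 3.62, 3.40 and 3.45 in IKK2 knockout, and 3.65, 3.50 and 3.40 in Cre controls. All 4 NEMO arrays lay below all 12 others. Traf5 was 1.49-fold lower in NEMO knockout than in Cre controls under nephritis (-0.58, SE 0.12, adjusted p = 0.00167) and 1.38-fold lower without it (-0.46, SE 0.12, adjusted p = 0.00723). Against IKK2 knockout the differences were -0.38 (SE 0.12, adjusted p = 0.0177) and -0.43 (SE 0.12, adjusted p = 0.0127). IKK2 knockout did not pass against Cre controls, at -0.19 (adjusted p = 0.348) and -0.03 (adjusted p = 0.875). Without NEMO replicate 1 of the condition, which leaves 1 NEMO array, the calls were lost against Cre controls without nephritis (-0.42, adjusted p = 0.0593) and against IKK2 knockout with nephritis (-0.33, adjusted p = 0.124) and without it (-0.39, adjusted p = 0.0934). Without IKK2 replicate 3 that of the nephritic knockouts was -0.35 (adjusted p = 0.0562).

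cIAP2, encoded by Birc3, is a ligase of NIK and a known target of canonical NF-kB. Birc3 read 0.78 and 0.84 in nephritic NEMO knockout, 1.14, 1.23 and 1.003 in nephritic IKK2 knockout, and 1.26, 1.49 and 1.20 in nephritic Cre controls. Without nephritis it read 0.98 and 0.88 in NEMO knockout, 1.02, 0.62 and 0.87 in IKK2 knockout, and 1.04, 1.28 and 1.17 in Cre controls. The NEMO arrays lay below the Cre arrays in both conditions. Birc3 was 1.42-fold lower in NEMO knockout than in Cre controls under nephritis (-0.51, SE 0.13, adjusted p = 0.00664) and did not pass without it (-0.24, SE 0.13, adjusted p = 0.154). In IKK2 knockout it did not pass, at -0.19 under nephritis (adjusted p = 0.390) and -0.33 without it (95% interval -0.58 to -0.08, adjusted p = 0.0748).

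cIAP1, encoded by Birc2, is the other ligase, and no comparison called it with all 16 arrays in the fit. Birc2 ranged from 1.91 to 2.03 in NEMO knockout, from 2.03 to 2.28 in IKK2 knockout and from 2.17 to 2.24 in nephritic Cre controls. Cre controls without nephritis read 1.44, 2.20 and 2.15, so replicate 1 was the lowest of the 16 arrays. Without that array NEMO knockout was lower than Cre controls without nephritis by -0.23 (adjusted p = 0.0377), where the difference with it was 0.02 (95% interval -0.36 to 0.40, adjusted p = 0.939). Leaving out the same array also lowered the model's spread, and the nephritic NEMO knockout then passed against Cre controls (-0.23, adjusted p = 0.0181, against 0.293 with it) and against IKK2 knockout (-0.26, adjusted p = 0.0121, against 0.255 with it). With only the arrays compared the difference between the nephritic knockouts passed (adjusted p = 0.0457) and that against Cre controls did not (adjusted p = 0.077).

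**Figure D2:**
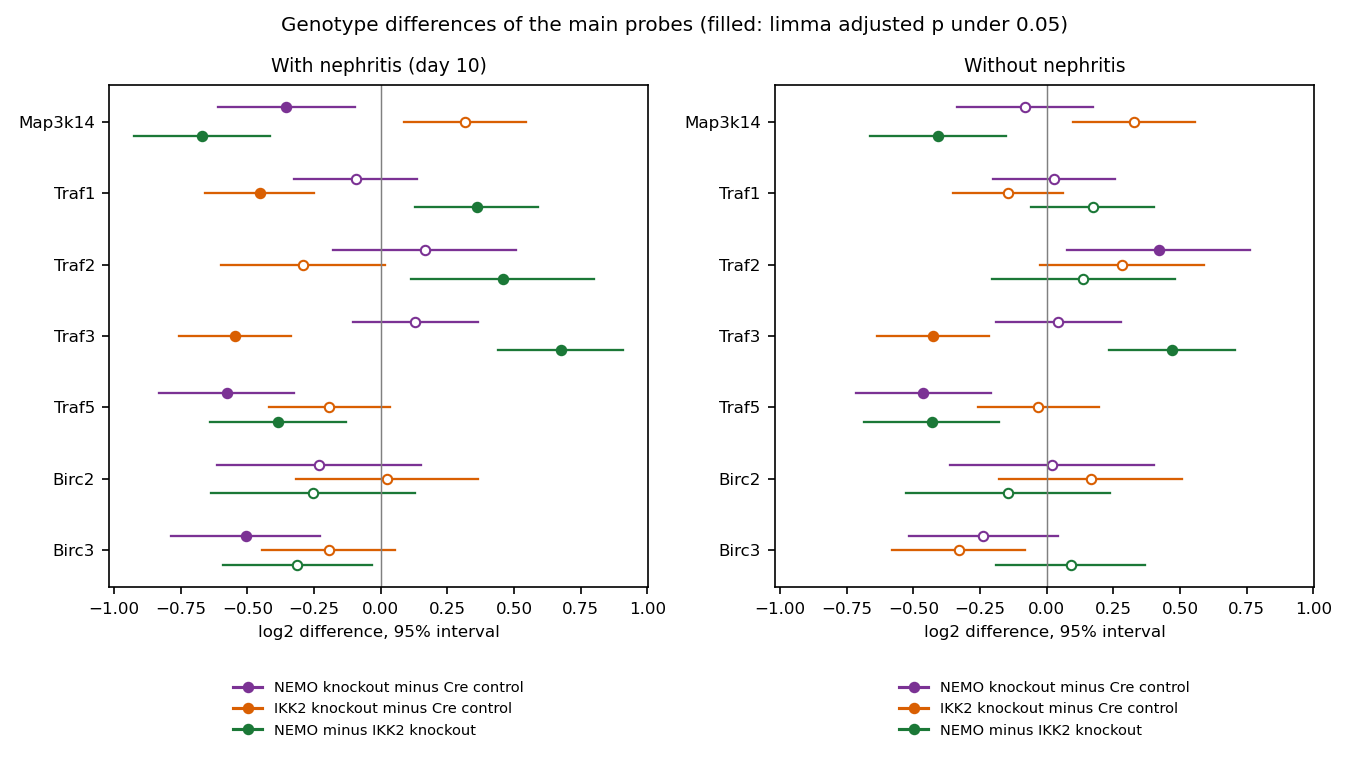
Differences of the 7 main probes between genotypes (log2, points) with 95% intervals of the limma model, with nephritis on the left and without on the right; filled points passed an adjusted p of 0.05. Traf3 lies below 0 for IKK2 knockout and above 0 for NEMO minus IKK2 in both panels, and Traf5 lies below 0 wherever NEMO knockout is set against another genotype.

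Ranked by group mean, each gene had its own order. Map3k14 ran from nephritic NEMO knockout (3.29 ± 0.01, SD, n = 2) up to nephritic IKK2 knockout (3.96 ± 0.10, SD, n = 3). Of neighbours in that order, only the lowest group was separate from the next and the IKK2 groups from those below. Traf3 ran the other way, with nephritic IKK2 knockout lowest (4.26 ± 0.10, SD, n = 3) and nephritic NEMO knockout highest (4.94 ± 0.02, SD, n = 2), and the IKK2 groups overlapped neither each other nor the group above while the other 4 overlapped their neighbours. For Traf5 the only gap lay between the NEMO groups and the rest. For Birc2 every group overlapped its neighbour. The span of group means over the main probes was 0.30 for Birc2, 0.45 for Traf1, 0.46 for Traf2, 0.51 for Birc3, 0.58 for Traf5, 0.67 for Map3k14 and 0.68 for Traf3.

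Nephritis itself moved no member past the test in any genotype. Of 7 members 0 were called in NEMO knockout (0.416% of all genes), 0 in IKK2 knockout (0.443%) and 0 in Cre controls (4.03%), and the members at an unadjusted p under 0.05 numbered 0, 2 and 0. The 2 were both in IKK2 knockout, Birc3 at 0.29 (SE 0.11, adjusted p = 0.267) and Traf2 at -0.31 (SE 0.14, adjusted p = 0.326). Arrays with and without nephritis did not overlap for 2 members in NEMO knockout (46.1% of all genes), Map3k14 and Birc3, for 2 in IKK2 knockout (18.2%), Traf3 and Birc2, and for 0 in Cre controls (29.5%). Across members the difference ran from -0.26 (Map3k14) to 0.03 in NEMO knockout, from -0.31 (Traf2) to 0.29 (Birc3) in IKK2 knockout and from -0.06 (Traf3) to 0.28 (Birc2) in Cre controls, whose median over all genes was 0.10. The 95% interval of the Map3k14 difference was -0.54 to 0.02 in NEMO knockout, -0.22 to 0.23 in IKK2 knockout and -0.21 to 0.24 in Cre controls.

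The response to nephritis was also compared between genotypes. For NEMO knockout minus Cre, IKK2 knockout minus Cre and NEMO minus IKK2 knockout, 0 of 7 members were called, where 0.266%, 1.14% and 0.252% of all genes were. At an unadjusted p under 0.05 there were 0, 2 (Traf1 and Traf2) and 1 (Birc3). The Traf2 response differed by -0.57 between IKK2 knockout and Cre controls, the largest such difference among the members in that comparison.

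**Figure D3:**
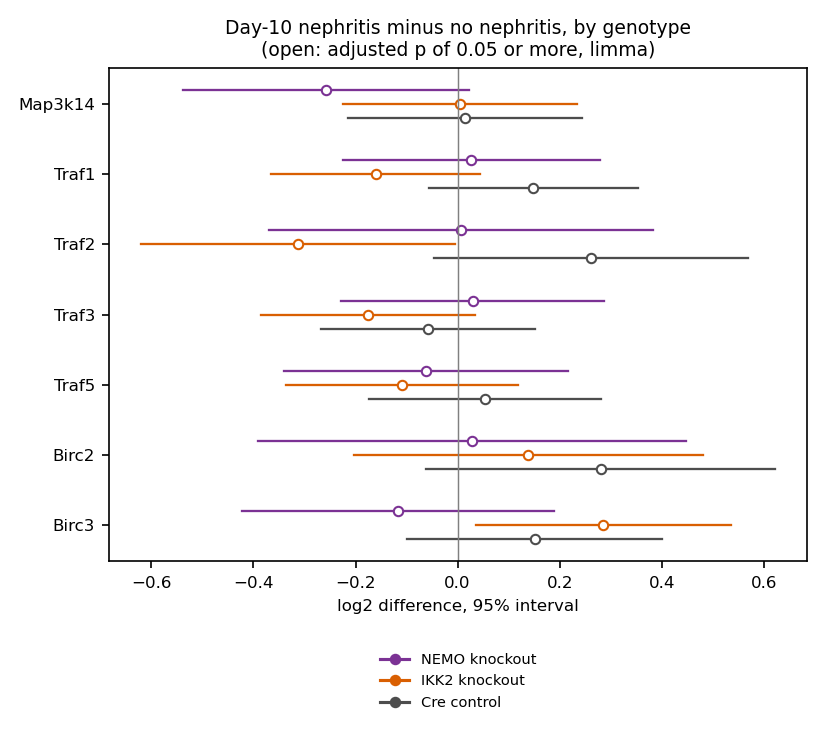
Day-10 nephritis minus no nephritis for each member in NEMO knockout, IKK2 knockout and Cre controls (log2 difference with the 95% interval of the limma model). All points are open, since 0 of 7 members passed in any genotype, and all but 2 of the intervals hold 0.

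Of the other pathway genes, 44 were listed by role and 41 tested. Of the DNA-binding subunits of the noncanonical arm, Nfkb2 moved in opposite directions in the knockouts and Relb passed against Cre controls in IKK2 knockout. Under nephritis Nfkb2 read 2.21 and 2.57 in NEMO knockout, 1.38, 1.01 and 1.09 in IKK2 knockout, and 1.70, 1.96 and 1.77 in Cre controls. Nfkb2 was higher in NEMO knockout than in Cre controls (0.58 under nephritis, adjusted p = 0.00597, and 0.49 without, adjusted p = 0.0164), and lower in nephritic IKK2 knockout (-0.65, adjusted p = 0.0226). Relb was lower in IKK2 knockout under nephritis (-0.69, adjusted p = 0.0151) and without it (-0.51, adjusted p = 0.0191). The Nfkb2 call in nephritic IKK2 knockout was lost in 10 of 27 alternatives and those of Relb in 5 and 7 of 27. NEMO knockout exceeded IKK2 knockout in both conditions, by 1.23 and 0.89 for Nfkb2 and by 0.89 and 0.66 for Relb. Chuk, the IKK1 kinase that NIK activates, passed in 0 of the comparisons of groups, with differences from -0.10 to 0.18.

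Among 9 other regulators of NIK and TRAF3, of which 8 were tested, 0 passed in IKK2 knockout against Cre controls. Of all genes 2.60% were called there under nephritis and 14.6% without it. In NEMO knockout 2 of the 8 regulators were lower under nephritis and 3 without it, and 0 were higher. Of all genes, 48.4% and 43.0% were called in NEMO knockout, 29.6% and 22.0% lower. Peli1, an E3 ligase of the Pellino family reported in mouse to act on NIK, read 4.81 and 4.81 in nephritic NEMO knockout against 6.10, 5.96 and 6.09 in nephritic Cre controls. It was lower by -1.24 under nephritis (SE 0.12, adjusted p = 8.60e-06) and -0.91 without it (SE 0.12, adjusted p = 8.67e-05). Traf3ip3, named for its binding to TRAF3, was lower by -1.26 (SE 0.13) and -1.02 (SE 0.13). Cyld, a deubiquitinase, passed without nephritis, where it was lower (-0.44, SE 0.15, adjusted p = 0.0295).

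Of 6 TRAF and IAP relatives, Traf4 and Traf6, adaptors better known from other receptor pathways, were lower in NEMO knockout than in Cre controls, by -0.60 and -0.60 under nephritis and by -0.34 and -0.69 without it. Traf7 was lower under nephritis (-0.24, adjusted p = 0.0239), a call lost in 10 of 25 alternatives. Xiap, an inhibitor of caspases, stood at -0.28 on nephritic Cre replicate 2 and between 3.25 and 3.60 on the other 15 arrays, and is named after its values were seen. Birc5, a mitotic member of the IAP family, was higher by 2.72 and 3.38. In IKK2 knockout 0 of 6 passed under nephritis (2.60% of all genes), and without it (14.6% of all genes) Birc5 (1.39) and Traf4 (0.50) were higher.

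**Figure D4:**
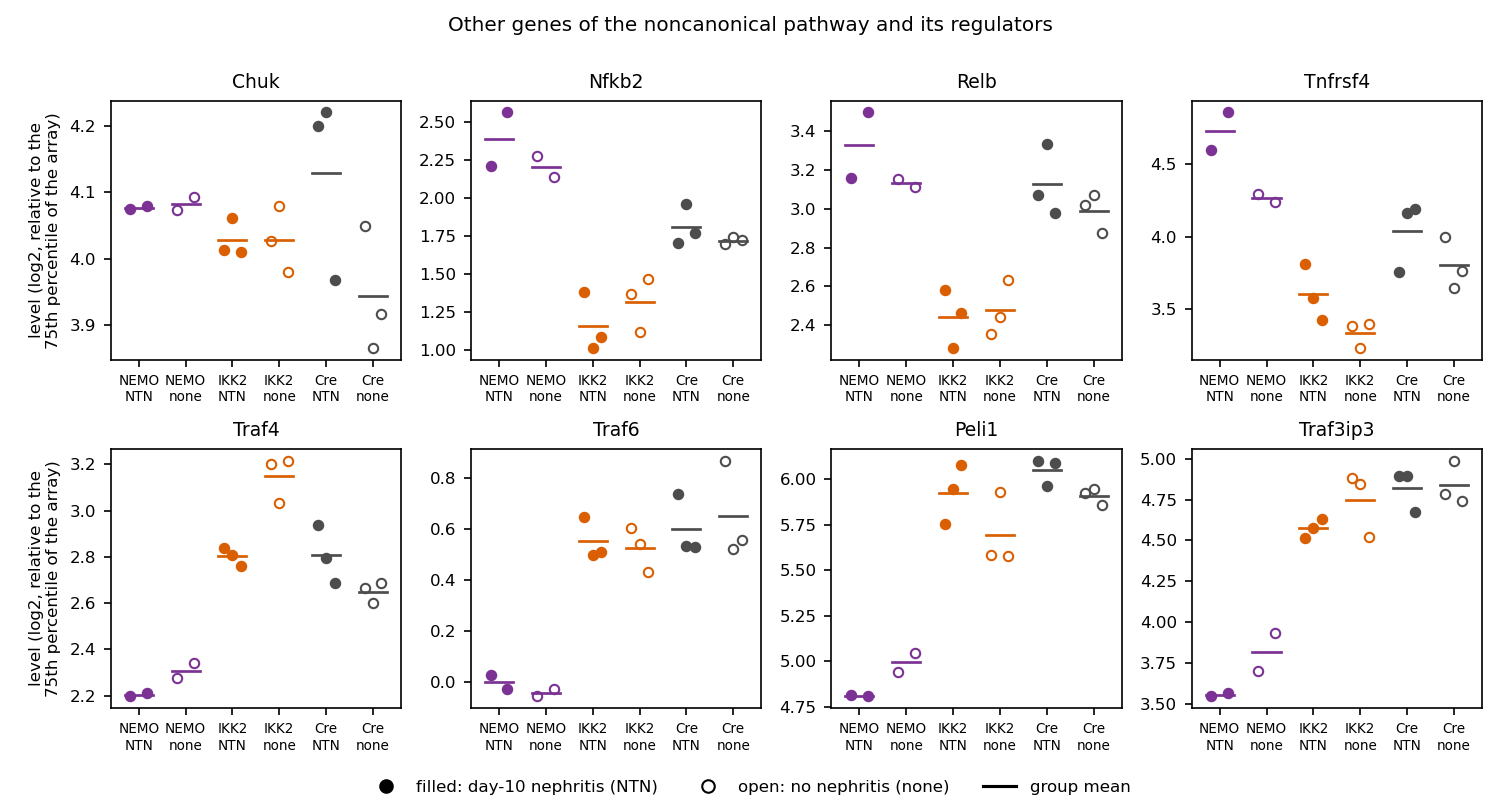
Levels of 8 other pathway genes (log2, relative to the 75th percentile of the array) on all 16 arrays; points are arrays and bars group means. Nfkb2 and Relb are lowest in IKK2 knockout, and Traf4, Traf6, Peli1 and Traf3ip3 are lowest in NEMO knockout.

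Receptors that use these adaptors were listed next, 11 of them with 10 tested. In NEMO knockout 5 were higher and 1 lower under nephritis, and 6 were higher and 1 lower without it, against Cre controls. Of all genes 48.4% and 43.0% were called there. Cd27, a receptor of naive and memory T cells, was lower by -2.11 (SE 0.12) and -1.82 (SE 0.12), and Tnfrsf1b, which encodes TNF receptor 2, was higher by 0.76 and 1.11 (SE 0.13 each). Tnfrsf4, which encodes OX40, was higher by 0.69 (SE 0.16) and 0.46 (SE 0.16), the call without nephritis lost in 8 of 25 alternatives. Tnfrsf13c, the BAFF receptor of B cells, was higher by 1.18 and 3.11. The first of these was 0.749 without nephritic Cre replicate 1, and that call was lost in 4 of 25 alternatives. Ltbr, the lymphotoxin beta receptor, was higher by 1.98 and 2.40, with Cre replicate 1 not well above background in either condition. Over the alternatives the Ltbr differences ran from 0.911 to 2.37 under nephritis and from 0.91 to 2.62 without it. Without nephritis Cd40 was not well above background on any Cre array and was at least 8.92-fold higher in NEMO knockout and at least 10.4-fold higher in IKK2 knockout. Such a bound sets the bright group's mean against the lowest signal that counts as above background, and it holds for the main processing alone. Over the alternatives the log2 difference of Cd40 ran from 1.03 to 3.73 in NEMO knockout and from 1.25 to 3.95 in IKK2 knockout. In IKK2 knockout 1 receptor was higher (Tnfrsf12a, 0.76, adjusted p = 0.0382) and 1 lower (Tnfrsf1b, -0.60, adjusted p = 0.0244) under nephritis, calls lost in 14 and 10 of 27 alternatives. Without it 4 were higher, Cd40, Tnfrsf13c (2.38), Ltbr (1.62) and Tnfrsf11a (0.53), and Tnfrsf4 was lower (-0.46, adjusted p = 0.0465). Of these the call of Tnfrsf4 was lost in 21 of 27 alternatives, that of Ltbr in 10 and that of Tnfrsf11a in 6. Of all genes, 2.60% were called in IKK2 knockout against Cre controls under nephritis and 14.6% without it.

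Of 13 ligands of the TNF family, 12 were tested. In NEMO knockout 6 were higher and 2 lower under nephritis (48.4% of all genes called) and 6 higher and 3 lower without it (43.0%). Tnfsf9 (4-1BB ligand) was higher by 2.47 and 2.66, Tnfsf14 (LIGHT) by 2.79 and 2.19 and Tnfsf13b (BAFF) by 1.95 and 1.88. Cd70 was not well above background on any Cre or IKK2 array. In the main processing it was at least 3.50-fold higher in NEMO knockout than in Cre controls under nephritis and at least 2.75-fold higher without it. Over the alternatives its log2 difference ran from 0.486 to 3.69 and from 0.28 to 3.64. The ligands lower in NEMO knockout were Ltb and Tnfsf12 in both conditions and Lta without nephritis. Over the alternatives the Ltb difference there ran from -0.76 to -0.134 under nephritis and from -0.564 to 0.108 without it. That of Lta without nephritis ran from -0.437 to -0.342. In IKK2 knockout Lta and Ltb, whose products form lymphotoxin, were also lower, by -0.67 and -0.67 under nephritis and by -0.50 and -0.50 without it. Under nephritis Tnfsf11 (RANKL) was also lower there (-0.9965, adjusted p = 0.0407, a call lost in 17 of 27 alternatives) and Tnfsf8 (CD30 ligand) higher (0.52, adjusted p = 0.00811), and without it Tnfsf9 was higher (1.01).

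Over the 41 tested genes, 13 were higher and 10 lower in nephritic NEMO knockout against Cre controls, where 48.4% of all genes were called, and 14 and 10 without nephritis, where 43.0% were. In IKK2 knockout 2 were higher and 6 lower under nephritis, where 2.60% of all genes were called, and 8 and 4 without it, where 14.6% were. Nephritis called 0 of 41 in NEMO knockout (0.416% of all genes), 1 in IKK2 knockout (Tnfsf8, 0.64; 0.443% of all genes) and 3 in Cre controls (Ikbkg, Birc5 and Tnfrsf13c; 4.03% of all genes). With slide as a block all 3 of the last were lost, at 0.336 for Ikbkg (adjusted p = 0.535), 1.28 for Birc5 (adjusted p = 0.219) and 1.46 for Tnfrsf13c (adjusted p = 0.383), and calls over all genes fell to 2 with that block, against 592 without it.

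Markers of cell composition and state moved with the same groups, and their part in the results above was not tested. Fewer cells of a type and less RNA per cell cannot be told apart in these bulk samples. Against Cre controls, 48.4% of all genes were called in nephritic NEMO knockout and 43.0% without nephritis. In IKK2 knockout these shares were 2.60% and 14.6%. Of 6 regulatory T cell markers, 5 were lower in IKK2 knockout than in Cre controls under nephritis and 4 without it. Their summed level, linear and in units of the array's 75th percentile, was 2.12 to 2.75 in nephritic IKK2 knockout against 4.46 to 9.79 in nephritic Cre controls, and 2.58 to 4.32 against 6.15 to 7.56 without nephritis, where Traf3 was also lower. In NEMO knockout, where Traf5 was lower, 3 of 6 were higher under nephritis and 1 without it, with sums of 9.06 to 13.6 and 9.56 to 10.5. All 6 naive T cell markers were lower in NEMO knockout in both conditions, with sums of 93.0 to 106 against 465 to 553 in nephritic Cre controls and 135 to 144 against 424 to 521 without nephritis. All 6 proliferation markers were higher there, with sums of 59.7 to 69.3 against 7.97 to 14.8 and 53.8 to 54.9 against 5.97 to 7.12.

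More B cell and myeloid markers passed in the knockouts against Cre controls without nephritis than with it. The Cre controls themselves differed between conditions, which lay on different slides. In those with nephritis 3 of 8 B cell, 2 of 8 myeloid and 2 of 6 erythroid markers were higher, where 4.03% of all genes were called. Of 8 B cell markers, 6 were higher in NEMO knockout and 7 in IKK2 knockout than in Cre controls without nephritis, with sums of 10.5 to 11.0 and 10.1 to 15.0 against 2.32 to 2.85, and 1 and 0 were under nephritis, with sums of 8.05 to 8.85 and 5.98 to 9.42 against 4.05 to 7.26. Pax5, a defining B cell factor, was not well above background on any NEMO or Cre array and was on 1 of 3 in each IKK2 group. Of 8 myeloid markers 7 were higher without nephritis in each knockout, although their sums lay below, at 51.6 to 60.3 in NEMO knockout and 39.9 to 59.7 in IKK2 knockout against 66.3 to 88.6 in Cre controls. Under nephritis 5 of 8 were higher in NEMO knockout and 0 in IKK2 knockout, with sums of 37.2 to 58.1 and 29.7 to 56.0 against 31.6 to 61.0. Of 6 CD8 and NK cell markers, 4 were higher and 1 lower in NEMO knockout in both conditions (sums 48.7 to 51.1 against 12.7 to 28.6, and 31.1 to 48.4 against 10.6 to 12.5). Of the same 6, 4 were higher and 1 lower in IKK2 knockout without nephritis (28.5 to 44.2) and 0 of 6 passed under nephritis (14.5 to 30.9). The 6 erythroid markers passed in 0 genotype comparisons, but their sum reached 324 on 1 nephritic Cre array, against 3.65 on the lowest of that group. Of the 8 T cell markers, 4 were lower in NEMO knockout under nephritis and 3 without it, with sums of 1008 to 1012 against 1160 to 1306 and 1034 to 1087 against 1138 to 1245, and 0 passed in IKK2 knockout.

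The genes most like each called member over the 16 arrays were named by the root mean square difference of centred log2 levels, among 14650 other genes with a value on every array. For Traf3 they were Spata13 (0.0752), Pold1 (0.111) and Nudt2 (0.125), and 19 genes lay within 0.15. For Map3k14 they were Nek8 (0.103), Pld3 (0.110) and Ppard (0.110), with 120 within 0.15. For Traf2 they were Cyren, Derl2 and 1700029I15Rik (0.110 to 0.113, 88 within 0.15), and for Birc3 Cmc1, Usp30 and Accs (0.101 to 0.105, 205 within 0.15). Traf1 had Dbndd2, Jak2 and Gimap5 (0.0793 to 0.0807, 303 within 0.15) and Traf5 had Donson, Zfp82 and Heatr5a (0.0681 to 0.0766, 883 within 0.15). Fewer genes thus tracked Traf3 within that limit than any other called member, and Traf3 itself varied most around its own mean, by 0.275 against 0.176 for Traf1.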

How the data were processed

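Gene expression was measured on 16 Agilent 1-colour arrays (Cy3) of sorted splenic CD4+ T cells. Linear spot intensity comes from scanner files that the authors deposited, 1 per array. Per the file headers, Agilent Feature Extraction had subtracted background from the processed intensity and removed its spatial trend (10.7.3.1 in the headers, 10.5 per the submitters' processing notes). A log2 matrix, deposited by the authors, served as an alternative. Its columns had medians of 5.65 to 5.68 and 4 missing cells in all, and correlation with log2 processed intensity was 0.966 to 0.984. Its values rise with intensity and were equalised between arrays, and the sources used here do not say how. The file headers name build mm9; names and promoters came from RefSeq tables of GRCm38.p6, and no coordinates were converted.

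Control and outlier spots (103 to 246 per array) were left out, spots of a probe were averaged, and each array's 75th percentile was subtracted after log2. Of 55681 probes 27248 had 1 symbol and 28433 none here. Probes had to be well above background on 2 or more arrays (34938 probes), and the brightest stood for its gene (14678 genes). The 6 group means were fitted by limma 3.58.1 (lmFit, eBayes, 11.8 degrees of freedom) in R 4.3.3 with every array. Adjusted p-values come from that fit, except those of the second probes, from the fit of all probes, and those of a named alternative, from its own fit. The fit was tested on simulated data. Python 3.11.15 with pandas 2.3.3, numpy 2.4.6 and matplotlib 3.10.9 served for promoters and plots.

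Members, lists and tests were chosen with earlier results of these data known. Genes other than members were named where they passed, at most 4 per list and comparison by size, and 3 most like each called member. Named outside that rule, after their values were seen, were Xiap, Tnfrsf4, the ligands lower in NEMO knockout, and Tnfrsf1b there without nephritis. The numbers of arrays, 2 or 3 per group, limit the precision. Alternatives were another background correction, 2 scalings, the deposited log2 matrix, no filter, the mean of a gene's probes, slide and replicate number as blocks, single slides, only the arrays compared, and leaving out each array. The files held no mean spot signal, so normexp (offset 50) used the median signal, chosen after seeing the data, as was leaving out nephritic Cre replicate 2 and Cre replicate 1 without nephritis together.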

Additional observations from a re-analysis of the deposited data

Results flagged for a closer look

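In 4 of the other pathway genes the response to nephritis differed between IKK2 knockout and Cre controls by an interaction test in limma, and in 0 of the 7 members. The Ikbkg response was lower in IKK2 knockout by -0.78 (SE 0.14, adjusted p = 0.0370). The Tnfrsf13c response was lower by -2.29 (SE 0.44, adjusted p = 0.0398). The Tnfsf8 response was higher by 0.56 (SE 0.11, adjusted p = 0.0452). The Traf4 response was lower by -0.50 (SE 0.11, adjusted p = 0.0492), a call lost in 26 of 26 alternatives, while those of Ikbkg, Tnfrsf13c and Tnfsf8 were lost in 17, 21 and 21 of 26. Groups of 2 or 3 arrays were not tested for single arrays that stand apart.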

How the results depend on the processing

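Of 16 called differences of members, recomputed as 406 values under the alternatives, 351 kept the call, 55 lost it and 0 changed sign. The calls never lost were Birc3 and Traf5 in nephritic NEMO knockout against Cre controls, Map3k14 between the nephritic knockouts, and Traf3 between the knockouts in both conditions. Of 68 differences not called, 9 passed under at least 1 alternative. The Birc2 difference of NEMO knockout against Cre controls without nephritis turned to -0.226 without Cre replicate 1 of that condition and ranged up to 0.157 without another array. Members called in nephritic IKK2 knockout against Cre controls (2) were 0 on slide 1 alone and with only the arrays compared, where calls over all genes were 73 and 49 against 382. They were 1 with the deposited matrix (261 of all genes), no filter (199), normexp (202) or both Cre arrays left out (209). Without nephritis (1, with 2137 of all genes) they were 3 with the percentile over detected probes only (2464). They were 2 with quantile normalization (2395), the mean of a gene's probes (2192) or the replicate block (1954). They were 0 with slide as a block (752) or with only the arrays compared (920). Slide 2 alone held 1 IKK2 array, and no count is given for it. In NEMO knockout against Cre controls without nephritis (2) they were 1 with the deposited matrix, no filter, normexp, only the arrays compared or the replicate block. Between the knockouts without nephritis (3) they were 1 with only the arrays compared (3008 of all genes against 5176). Leaving out each array gave 0 to 2 members for nephritic IKK2 knockout against Cre controls (123 to 426 of all genes), 1 to 2 without nephritis (1264 to 2324), 2 to 4 for nephritic NEMO knockout (4808 to 7452), 0 to 3 without (4341 to 6662), 2 to 6 between the nephritic knockouts (4597 to 7142) and 2 to 3 without (3179 to 5543), and 0 throughout for nephritis and its responses. Replicate numbers did not pair the arrays, since deviations of same-numbered arrays from their group means correlated at -0.196 to 0.126. With the replicate block Map3k14 in IKK2 knockout without nephritis passed (0.326, adjusted p = 0.0429), and Traf2 lost its calls in NEMO knockout against Cre controls without nephritis (0.383, adjusted p = 0.0757) and between the nephritic knockouts (0.420, adjusted p = 0.0515). The second probes lost 28 of 128 values and the pathway genes 339 of 2924. In NEMO knockout Ltb turned to 0.108 with quantile normalization and 0.0621 in the deposited matrix without nephritis, and Tnfsf12 under nephritis to 0.269 against Cre controls and 0.0666 against IKK2 knockout with the mean of its probes. The share of calls that were higher was 38.5% in nephritic IKK2 knockout against Cre controls and 51.2% with the percentile over detected probes only, and for nephritis in Cre controls 63.7%, against 47.5% with that percentile, 49.7% with normexp and 43.5% in the deposited matrix. The cause of these changes was not tested. Slide 3 held only NEMO arrays, so slide as a block gave no value for NEMO against another genotype.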
